A study of Homo sapiens with 4 samples.

Results

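The genes described here are 8 of the 48162 in the deposited table: the metallothioneins MT1E, MT1F, MT1G, MT1M, MT1X and MT2A, their transcription factor MTF1, and SLC30A1, which encodes a zinc exporter. They were chosen by name, with earlier results of these data known, and all 8 were found in the table of raw counts. The RNA-seq libraries are labelled as MDA-MB-453 cells, an established human breast cancer line, and nothing in the labels gives a treatment or time. The TMEM9 KD group had 2 libraries, with 15960941 and 17065126 counts, and the wild-type (WT) group had 2, with 15323843 and 18517337 counts. In part the data go against the label of the line: PIP was at 0 counts and the collagen genes COL1A1 and COL3A1 were high in WT. How TMEM9, a membrane protein of endosomes and lysosomes, was knocked down, and whether the knockdown cells are a clone or a pool, is not stated. TMEM9 itself had 51 and 78 counts in TMEM9 KD, against 1120 and 1497 in WT (log2 fold change -4.37, SE 0.13). Since the labels do not name separate cultures, the p-values reflect library-to-library spread alone, which could be technical.

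Metallothioneins are small, cysteine-rich proteins that bind zinc, copper and cadmium and so buffer free metal in the cell. When free zinc rises, MTF1 binds metal response elements in DNA and switches on metallothionein genes and SLC30A1, whose product carries zinc out across the plasma membrane. Glucocorticoids also induce MT2A. Human MT1 and MT2 genes lie side by side in a cluster on chromosome 16, and MTF1 and SLC30A1 lie on chromosome 1, as does TMEM9.

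RefSeq promoter windows (GRCh38.p14) matched 4 of the 8 members, MT2A, MT1X, SLC30A1 and MTF1. Because MTF1 acts through the metal response element, the 250 bases before the start site are shown for MT2A and SLC30A1, which both fell in TMEM9 KD, and for MT1X, which was not called. Capitals mark matches to the 7-base core of the element, TGCACNC or TGCGCNC, searched on both strands. No matches overlapped. The windows were chr16:56608334-56608583 on the plus strand for MT2A, chr16:56682220-56682469 on the plus strand for MT1X and chr1:211579162-211579411 on the minus strand for SLC30A1, each written 5′ to 3′ along its gene.
MT2A: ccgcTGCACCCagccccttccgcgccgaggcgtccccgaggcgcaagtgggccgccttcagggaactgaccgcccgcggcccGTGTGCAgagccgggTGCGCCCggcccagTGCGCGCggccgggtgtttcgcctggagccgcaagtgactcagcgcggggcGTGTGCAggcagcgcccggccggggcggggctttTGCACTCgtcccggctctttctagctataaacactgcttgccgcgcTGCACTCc
MT1X: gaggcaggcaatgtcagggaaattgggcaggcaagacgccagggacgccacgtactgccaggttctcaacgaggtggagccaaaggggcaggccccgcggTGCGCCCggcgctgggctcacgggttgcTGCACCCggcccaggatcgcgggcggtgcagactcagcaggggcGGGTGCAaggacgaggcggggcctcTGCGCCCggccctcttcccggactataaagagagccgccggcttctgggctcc
SLC30A1: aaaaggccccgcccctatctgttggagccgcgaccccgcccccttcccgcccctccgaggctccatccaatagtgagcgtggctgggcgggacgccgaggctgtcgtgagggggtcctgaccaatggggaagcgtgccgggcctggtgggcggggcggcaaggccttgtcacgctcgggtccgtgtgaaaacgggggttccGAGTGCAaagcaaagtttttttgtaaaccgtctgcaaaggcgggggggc

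The MT2A window held 7 matches, the MT1X window 4 and the SLC30A1 window 1, which starts 49 bases before the start site, while the MTF1 window held 0. Of 35116 windows of the same length searched, 24.8% held at least 1 match, 0.370% at least 4 and 0.0313% at least 7. A match is a stretch of letters and was not tested as a binding site.

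**Figure D1:**
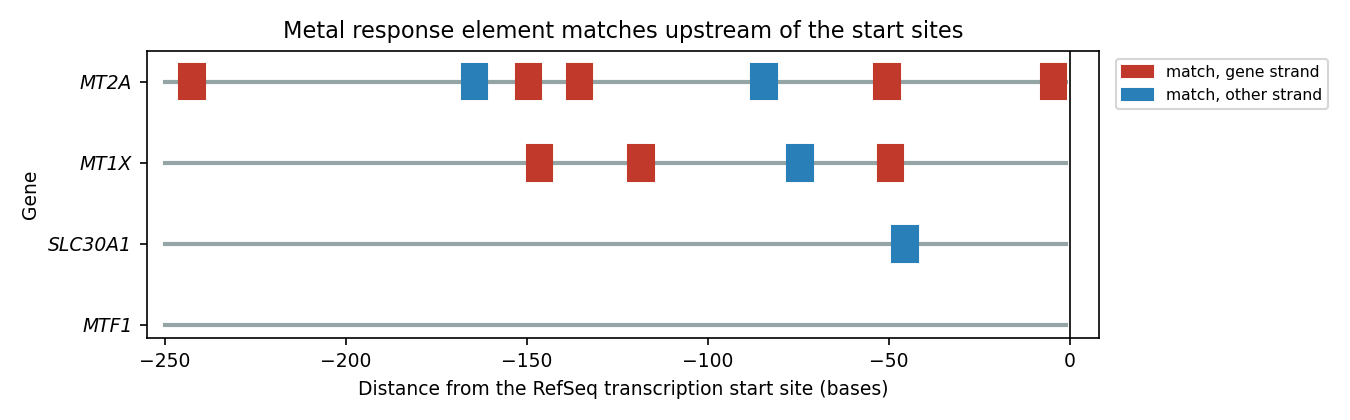
Matches to the metal response element core in the 250 bases before the RefSeq start site of 4 genes, by distance from the start site in bases; red boxes are matches on the strand of the gene and blue boxes on the other strand. MT2A holds 7 matches spread over the window, MT1X 4, SLC30A1 1 and MTF1 0.

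The comparison asks how RNA levels differ when TMEM9 is reduced. Levels are CPM, each count relative to its library size after TMM scaling, log2 fold changes are of TMEM9 KD over WT, and a gene is called at an adjusted p below 0.05 in edgeR's quasi-likelihood test over 14923 genes. The metallothioneins did not all move in the same direction. MT1E rose 5.60-fold and MT2A fell 1.25-fold. MT1F fell to 0 counts in TMEM9 KD, MT1X was not called, and MT1G and MT1M had no counts in any library. Of the 6 members that passed the filter on low counts, 2 were called higher and 3 lower in TMEM9 KD. MT1F, 1 of the 3, passed that filter only through its WT libraries and so could only be lower. Among all tested genes, 28.7% were called higher and 29.0% lower, 57.7% in all, so calls of this kind are common in these libraries and nothing is read from the members' count. The median log2 fold change of those 6 was -0.15, and that of all genes tested was 0.01. In bulk RNA, fewer cells that express a gene and less of its RNA per cell cannot be told apart.

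MT1E (ENSG00000169715), a metallothionein of the MT1 group, had 1275 and 1213 counts in TMEM9 KD, or 77.9 and 69.5 CPM, against 195 and 238 counts in WT, or 13.0 and 13.2 CPM. Both TMEM9 KD libraries lay far above both WT libraries. The log2 fold change was 2.49 (SE 0.10, edgeR adjusted p = 2.86e-40), and 2.26% of tested genes were called and at least 4-fold higher. In size it exceeded or equalled the change of 95.1% of all tested genes.

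MT2A (ENSG00000125148), the most abundant metallothionein here, had 6786 and 7146 counts in TMEM9 KD, or 414 and 409 CPM, against 7627 and 9315 counts in WT, or 510.1 and 518 CPM. The groups did not overlap, and libraries within a group differed by little. MT2A fell 1.25-fold (log2 fold change -0.32, SE 0.05, edgeR adjusted p = 2.58e-07), a change near the middle of all tested genes, at percentile 44.2 in size.

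MT1X (ENSG00000187193) had 30 and 34 counts in TMEM9 KD, or 1.83 and 1.95 CPM, against 37 and 24 counts in WT, or 2.47 and 1.34 CPM. The WT libraries lay on either side of the TMEM9 KD libraries. The log2 fold change was 0.01 with a 95% interval of -0.70 to 0.73 (edgeR adjusted p = 0.977), so changes of up to about that size were not detectable at this depth.

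MT1F (ENSG00000198417) had 0 counts in both TMEM9 KD libraries, against 12 and 18 counts in WT, or 0.803 and 1.00 CPM. With a floor of 3 counts summed over the group, MT1F was at least 10.3-fold lower in TMEM9 KD (edgeR adjusted p = 2.44e-06). That bound takes the WT counts of MT1F as exact. As MT1F passed the filter only through its WT libraries, its call could only be lower and is not read as support. Among tested genes, 4.44% were called and at least 4-fold lower. MT1G (ENSG00000125144) and MT1M (ENSG00000205364) had 0 counts in all 4 libraries, which allows up to 0.188 and 0.176 CPM in the TMEM9 KD libraries and 0.196 and 0.162 CPM in the WT libraries, at 3 counts of each library total. Floors and intervals of counts cover counting error only.

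**Figure D2:**
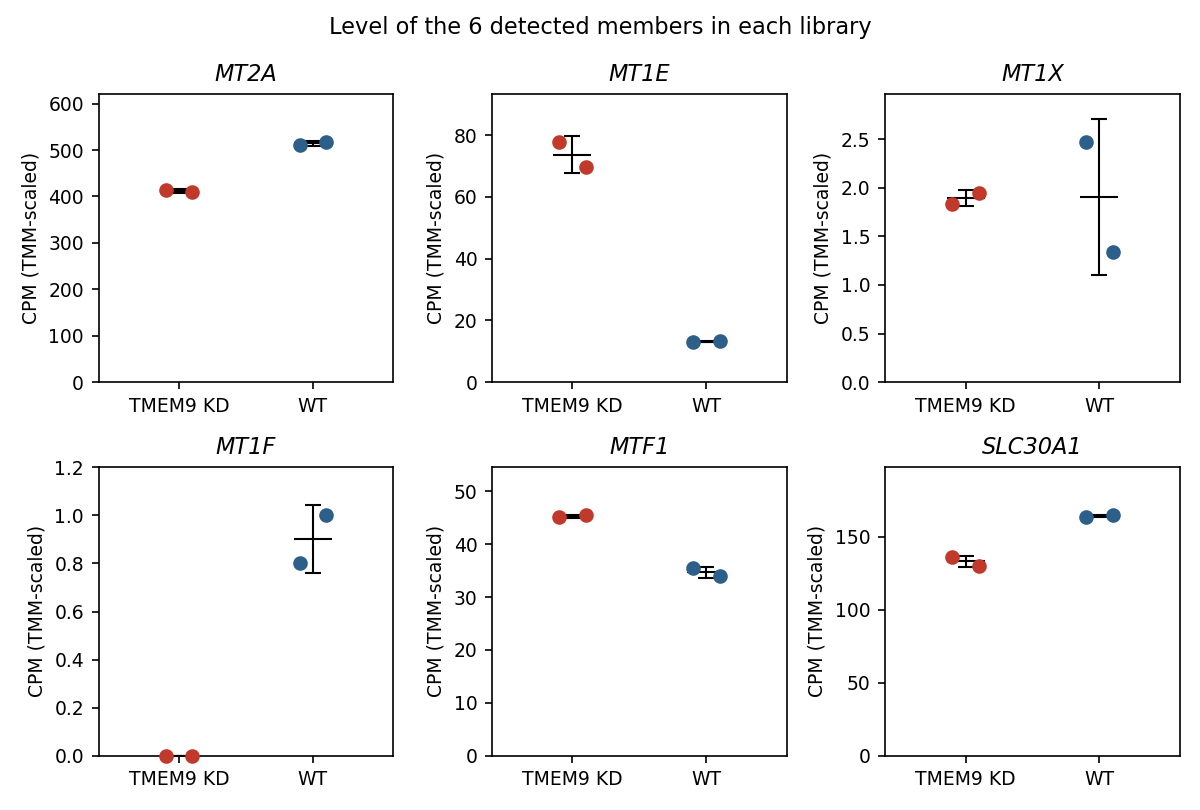
CPM of 6 members in each library, each on its own axis from 0; points are libraries, bars the mean and SD of 2 libraries per group, with TMEM9 KD in red and WT in blue. MT1E stands at 69.5 and 77.9 CPM in TMEM9 KD and at 13.0 and 13.2 CPM in WT, while MT2A and SLC30A1 are lower and MTF1 higher in TMEM9 KD by much smaller margins, and the WT libraries of MT1X lie on either side of its TMEM9 KD libraries.

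Because these genes resemble each other, reads could be split among them. The read length is not stated. In GENCODE 29 transcripts, 87.4% of the distinct 36-base stretches of MT1E occurred in no other gene, as did 93.8% of those of MT2A, 97.5% of those of MT1F and 80.6% of those of MT1X. MT1E shared most with MT1M, at 7.10% of its stretches, and MT1M was at 0 counts. It shared 0% with MT2A. MT1X shared most with AC026461.1, an overlapping transcript that also had 0 counts in every library. How the authors treated reads that match several genes is not stated, so values of single MT1 genes are uncertain to that extent.

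Summed over the 20 metallothionein rows of the table, pseudogenes included, the level was 494 and 481 CPM in TMEM9 KD, against 527 and 534 CPM in WT. The log2 ratio of the sums was -0.12, and -0.05 when scaled by library size alone. No test was made on the sum. The make-up differed more than the sum. MT1E took 15.8% (95% Wilson interval 14.98 to 16.6) and 14.4% (13.7 to 15.2) of metallothionein counts in TMEM9 KD, against 2.48% (2.16 to 2.84) and 2.48% (2.19 to 2.81) in WT. MT2A took 83.9% and 85.1% in TMEM9 KD, against 96.9% and 97.1% in WT. There were 5.32 and 5.89 MT2A counts for each MT1E count in TMEM9 KD, and 39.1 in each WT library. The mean level of MT1E in TMEM9 KD minus that in WT was 60.5 CPM, and that of MT2A was -102.2 CPM.

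**Figure D3:**
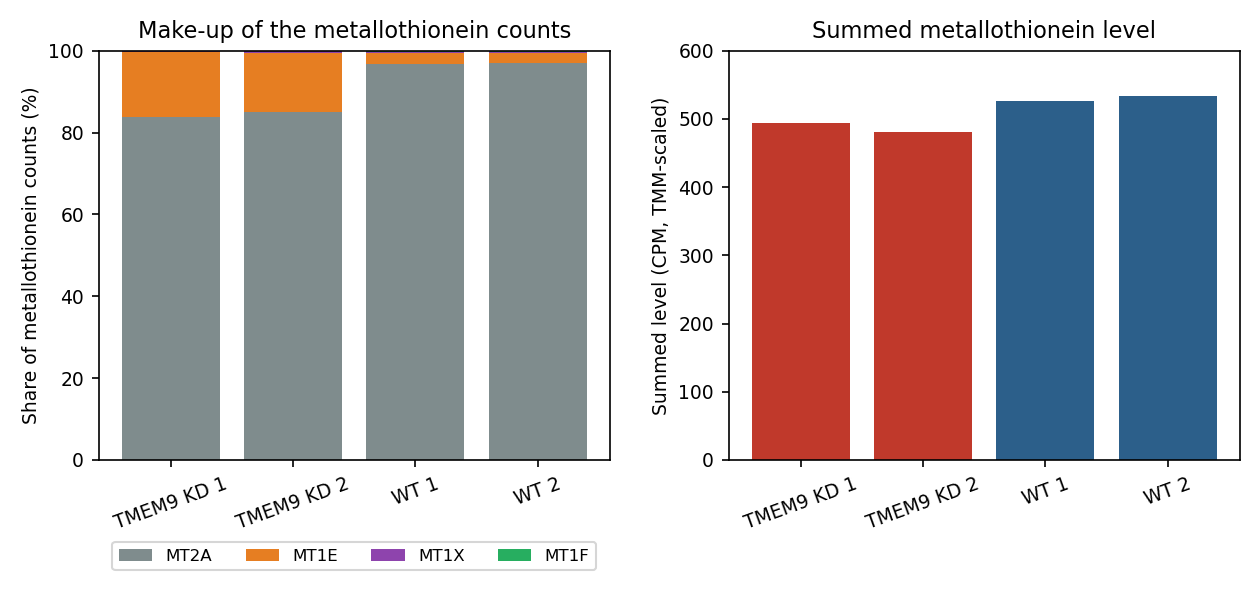
Left, share of metallothionein counts taken by MT2A, MT1E, MT1X and MT1F in each library, in percent; right, summed metallothionein level in CPM, with TMEM9 KD in red and WT in blue. MT1E takes 15.8% and 14.4% in TMEM9 KD and 2.48% in each WT library, while the sums lie between 481 and 534 CPM.

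The other metallothionein genes fixed as a list gave almost no counts. Of 12 found in the table, 10 had no count in any library, among them MT3, the brain metallothionein, and MT4, that of stratified epithelium. MT1L, a pseudogene, had 0 and 3 counts in TMEM9 KD and 0 in each WT library, and the pseudogene MT1P1 had 0 in each TMEM9 KD library and 0 and 2 in WT. None of the 12 could be tested.

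MTF1 (ENSG00000188786), the zinc-sensing transcription factor, had 738 and 794 counts in TMEM9 KD, or 45.1 and 45.5 CPM, against 530 and 610 counts in WT, or 35.4 and 33.9 CPM. The groups did not overlap. MTF1 rose 1.31-fold (log2 fold change 0.39, SE 0.09, edgeR adjusted p = 0.00019), at percentile 50.9 in size among all tested genes.

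SLC30A1 (ENSG00000170385), the plasma membrane exporter also called ZnT1, had 2222 and 2271 counts in TMEM9 KD, or 135.7 and 130.1 CPM, against 2443 and 2960 counts in WT, or 163 and 165 CPM. The groups did not overlap. SLC30A1 fell 1.23-fold (log2 fold change -0.30, SE 0.06, edgeR adjusted p = 2.95e-05), at percentile 42.5 in size. Of the 6 members that passed the filter, 5 did not overlap between groups, MT1F among them, and neither did 77.6% of all tested genes. Tested against a change of 1.5-fold, MT1E stayed called and MT2A, MTF1 and SLC30A1 were not (edgeR adjusted p = 1 for each). MT1F stayed called as well, but it could only be lower.

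Levels were set between genes per kilobase of merged exons. In TMEM9 KD, MT2A stood at 317 ± 2.76 CPM per kb, MT1E at 70.04 ± 5.63, SLC30A1 at 24.3 ± 0.724, MTF1 at 5.64 ± 0.0364 and MT1X at 1.07 ± 0.0461 (SD, n = 2). In WT, MT2A stood at 396 ± 4.40 CPM per kb, SLC30A1 at 30.0 ± 0.165, MT1E at 12.5 ± 0.133, MTF1 at 4.32 ± 0.133, MT1X at 1.07 ± 0.454 and MT1F at 0.477 ± 0.0744 (SD, n = 2). MT1E thus ranked above SLC30A1 in TMEM9 KD and below it in WT, by more than the spread between libraries. The neighbours MT1X and MT1F in WT were separated by little more than the SD of MT1X.

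The genes beside the metallothionein cluster on chromosome 16 gave no change of the size of MT1E. Of the 5 nearest tested protein-coding genes on each side in GENCODE 29 order, 2 were called higher and 6 lower in TMEM9 KD. Among all genes tested, 28.7% were called higher and 29.0% lower. The median log2 fold change of the flanking genes was -0.28. The call of GNAO1, a G protein subunit and 1 of the 6, ended without TMEM9 KD replicate 1 (edgeR adjusted p = 0.27) and without WT replicate 1 (0.236), and NLRC5 was called higher without TMEM9 KD replicate 1 (0.011). The highest was OGFOD1, a prolyl hydroxylase of a ribosomal protein, with 81.8 and 80.2 CPM in TMEM9 KD, against 58.7 and 61.9 CPM in WT (log2 fold change 0.42, SE 0.08). The lowest was CETP, a lipid transfer protein, with 1.28 and 0.573 CPM in TMEM9 KD, against 3.08 and 3.39 CPM in WT (log2 fold change -1.81, SE 0.37). The nearest neighbours were BBS2, a ciliary trafficking protein, with a log2 fold change of -0.15 that was not called, and NUP93, a nuclear pore protein, which rose by 0.33.

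**Figure D4:**
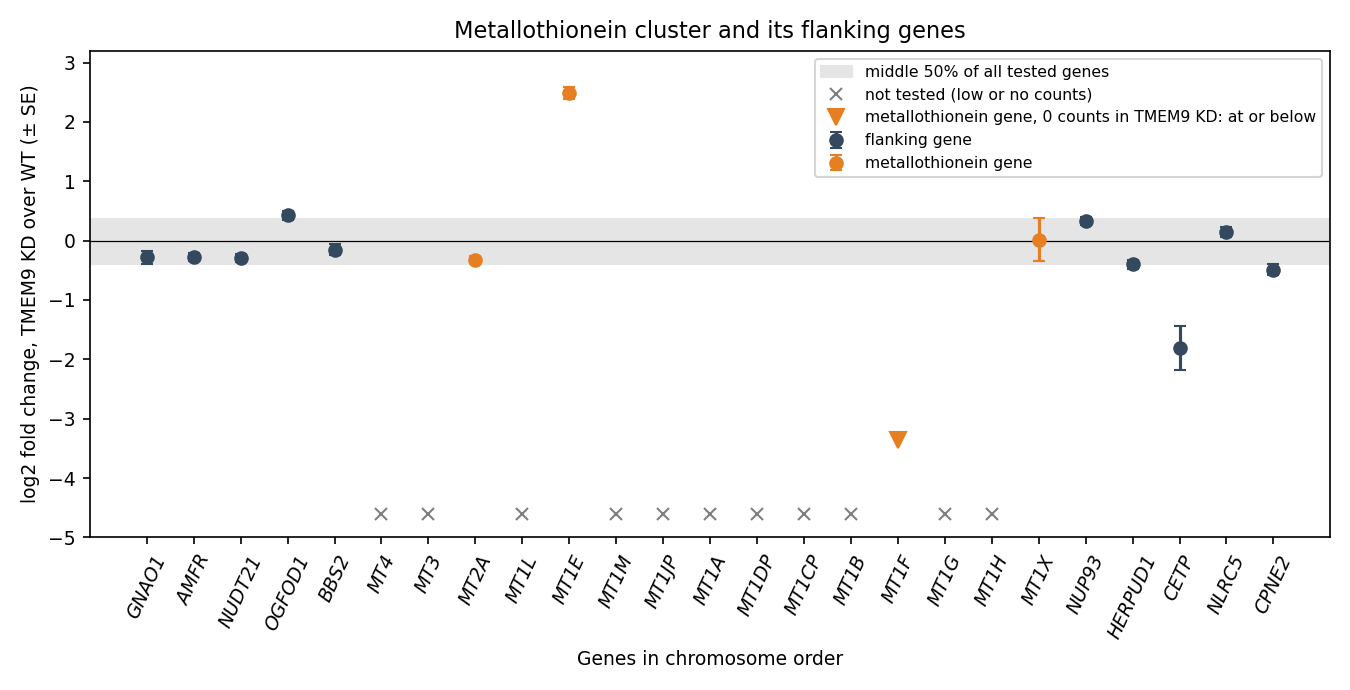
Log2 fold change of TMEM9 KD over WT, with SE, of the metallothionein genes and 5 tested protein-coding genes on each side in chromosome order; crosses mark genes not tested, the triangle gives MT1F at its bound from a floor of 3 counts, and the grey band holds the middle 50% of all tested genes. MT1E at 2.49 stands above every other gene drawn, while MT2A, MT1X and most flanking genes lie in or near the band.

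Zinc importers of the SLC39 (ZIP) family bring zinc into the cytosol. Of 11 tested, 6 fell and 1 rose, beside 29.0% called lower and 28.7% called higher among all genes tested. Their median on the log2 scale was -0.28, and that of all genes tested was 0.01. SLC39A8 (ZIP8), a zinc and manganese importer, had 134 and 125 CPM in TMEM9 KD, against 278 and 278 CPM in WT (log2 fold change -1.10, SE 0.06, edgeR adjusted p = 7.96e-30). SLC39A10 (ZIP10), which MTF1 represses in mouse, had 69.996 and 61.8 CPM in TMEM9 KD, against 138 and 139 CPM in WT (log2 fold change -1.07, SE 0.07, edgeR adjusted p = 7.3e-25). In both genes every TMEM9 KD library lay below every WT library. SLC39A6 (ZIP6), an oestrogen-induced importer in breast cancer cells, fell by 0.46 on the log2 scale, and SLC39A3 (ZIP3) rose by 0.45. SLC39A12 had no counts.

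Exporters of the SLC30 (ZnT) family other than SLC30A1 were mostly not called. Of 6 tested, 1 rose and 0 fell, beside 28.7% called higher and 29.0% called lower among all genes tested. Their median log2 fold change was 0.08. The gene that rose was SLC30A4 (ZnT4), which loads zinc into vesicles, with 19.97 and 17.3 CPM in TMEM9 KD, against 11.4 and 12.9 CPM in WT (log2 fold change 0.62, SE 0.14, edgeR adjusted p = 5.58e-05). SLC30A5, SLC30A6, SLC30A7 and SLC30A9, which serve the secretory pathway or mitochondria, had log2 fold changes between -0.09 and 0.12 and were not called. SLC30A3 had a log2 fold change of 0.82 (SE 0.37, edgeR adjusted p = 0.0503) at 38 and 40 counts in TMEM9 KD and 18 and 25 in WT.

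**Figure D5:**
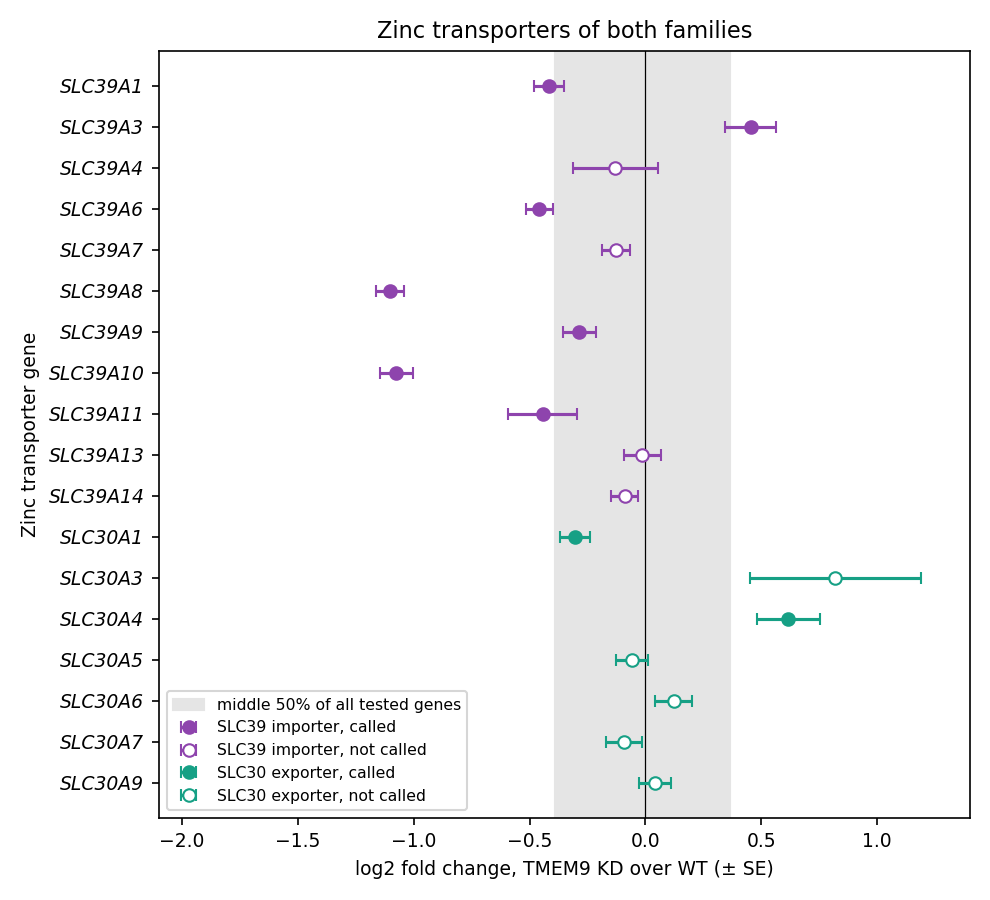
Log2 fold change of TMEM9 KD over WT, with SE, of tested SLC39 importers (purple) and SLC30 exporters (green); filled points were called at an adjusted p below 0.05, and the grey band holds the middle 50% of all tested genes. SLC39A8 at -1.10 and SLC39A10 at -1.07 lie farthest to the left, and SLC30A1 at -0.30 lies inside the band.

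Genes outside the metallothioneins that are reported to respond to MTF1, mostly in mouse, did not move in a common direction. SLC39A10 in this list is repressed by MTF1 in mouse, so a common direction is not implied and the median does not measure MTF1 activity. Of 6 tested, 1 rose, 3 fell, SLC39A10 among them, and 2 were not called, beside 28.7% called higher and 29.0% called lower among all genes tested. The median log2 fold change of the 6 was -0.51, between 3 genes below 0 and 3 above. NDRG1, a gene of hypoxia and metal stress, had 34.1 and 33.9 CPM in TMEM9 KD, against 319.7 and 340 CPM in WT (log2 fold change -3.28, SE 0.07). PGF, placental growth factor, had 14.5 and 17.5 CPM in TMEM9 KD, against 54.0 and 52.0 CPM in WT (log2 fold change -1.72, SE 0.10). CSRP1, a LIM domain protein, rose by 0.29 on the log2 scale. SELENOH and SLC40A1 were not called, with log2 fold changes of 0.06 and 0.15.

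Metallothioneins bind copper as well. Of 11 tested copper-handling genes 2 rose and 4 fell, beside 28.7% called higher and 29.0% called lower among all genes tested. Their median log2 fold change was -0.11. ATP7B, a copper-exporting ATPase, had 1.53 and 1.32 CPM in TMEM9 KD, against 8.29 and 8.62 CPM in WT (log2 fold change -2.57, SE 0.25, edgeR adjusted p = 1.47e-15). Its relative ATP7A fell by 0.31 and COX17, a mitochondrial copper chaperone, by 0.36 on the log2 scale, while SCO2, a copper protein of cytochrome c oxidase assembly, rose by 0.44. The call of ATP7A ended without WT replicate 1 (edgeR adjusted p = 0.169).

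Of 7 tested genes of the glucocorticoid receptor and its targets, 3 rose and 2 fell. Among all genes tested, 28.7% were called higher and 29.0% lower. The median log2 fold change of the 7 was -0.01. NR3C1, the receptor, had 279 and 271 CPM in TMEM9 KD, against 280 and 274 CPM in WT, and was not called. The targets DUSP1, a phosphatase, and SGK1, a kinase, rose by log2 fold changes of 0.82 and 0.80, FKBP5 by 0.51, and PER1, a clock gene, fell by 0.75. ZBTB16 had no counts.

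Of 10 genes of metal and oxidative stress, 5 rose and 2 fell, beside 28.7% called higher and 29.0% called lower among all genes tested. Their median log2 fold change was 0.41. HMOX1, haem oxygenase, had 39.2 and 39.5 CPM in TMEM9 KD, against 69.9 and 71.7 CPM in WT (log2 fold change -0.85, SE 0.08). GCLM, a subunit of the enzyme that starts glutathione synthesis, fell by 0.92 on the log2 scale. GCLC, the other subunit of that enzyme, rose by 0.46 and TXNRD1 by 0.54 on the log2 scale, and both were called. The near-identical heat shock genes HSPA1A and HSPA1B, between which reads may be split, rose by log2 fold changes of 1.19 and 0.54.

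By distance between log2(CPM + 0.5) values centred on each gene over the 4 libraries, among genes averaging 5 CPM or more, the genes nearest to MT2A were ATP5MC3, PAQR5 and RPL10A, at 0.0103 to 0.0167. Those nearest to SLC30A1 were UBE2R2, KIF16B and ARNT2, at 0.00354 to 0.0166. With 2 groups of 2 libraries, such likeness rests mainly on the difference between groups.

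Markers of the labelled line were in part absent. ERBB2 had 53.3 and 55.5 CPM in TMEM9 KD, against 63.6 and 63.8 CPM in WT. PIP had 0 counts in all libraries, and SPDEF, TFAP2B and KRT19 had at most 6 in any. Markers of other cells moved with the groups. All 7 basal epithelial markers fell, beside 29.0% of all genes tested, with a median log2 fold change of -2.56. Their summed level was 553 to 558 CPM in TMEM9 KD and 927 to 932 CPM in WT, most of it from ITGA6, at 431 and 432 CPM in TMEM9 KD and 503 and 510.1 CPM in WT. ITGB4 fell 39.0-fold, TP63 fell 4.78-fold, and KRT14 had 0 counts in both TMEM9 KD libraries, against 185 and 307 in WT. KRT14 and KRT5 passed the filter only through their WT libraries, so their calls could only be lower and are not read as support. Both are among the 7 basal markers and enter their median. Of 8 fibroblast markers tested, 4 rose and 4 fell, beside 28.7% called higher and 29.0% called lower among all genes tested. LUM, among those that rose, passed the filter only through its TMEM9 KD libraries and so could only be higher. Fibroblast markers summed to 1536 to 1706 CPM in TMEM9 KD and 2076 to 2110.2 CPM in WT. COL3A1 fell 30.7-fold, with 27.7 and 34.5 CPM in TMEM9 KD, against 947 and 966 CPM in WT, and THY1 fell 9.26-fold. COL1A1 rose 1.68-fold, with 1300 and 1473 CPM in TMEM9 KD, against 815 and 832 CPM in WT. High collagen RNA is usual in fibroblasts and not in epithelial lines, so these levels and the absent markers go in part against the label. Other fibroblast markers were mixed. COL1A2 had 2 and 1 counts in TMEM9 KD and 9 and 16 in WT. LUM, DCN and FAP averaged 1.46, 3.08 and 7.55 CPM in TMEM9 KD and 0.0556, 1.82 and 4.73 CPM in WT. PDGFRA and PDGFRB stood higher, at means of 147 and 43.0 CPM in TMEM9 KD and 244 and 52.2 CPM in WT. Leukocyte markers summed to 5.68 to 6.02 CPM in TMEM9 KD and 12.6 to 13.9 CPM in WT, with CD3E, MS4A1 and LYZ at 0. These markers did not fall together: of 3 tested, 1 rose and 2 fell, beside 28.7% called higher and 29.0% called lower among all genes tested. PTPRC rose (log2 fold change 0.72, SE 0.27), while CD14 (-2.59, SE 0.28) and CD74 (-5.15, SE 0.60) fell. CD74, at 0 and 3 counts in TMEM9 KD, passed the filter only through its WT libraries and so could only be lower. Photoreceptor markers, included because the series text calls the profiles retinal, summed to 6.72 to 7.85 CPM in TMEM9 KD and 14.9 to 15.4 CPM in WT. Most of each sum came from OPN1SW, at 4.95 and 6.07 CPM in TMEM9 KD and 13.0 and 13.1 CPM in WT. GNAT1 and RCVRN were among those at 0. The part of all these markers in the metallothionein and transporter values was not tested.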

How the data were processed

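The authors deposited raw counts per Ensembl gene, one column for each of 4 RNA-seq libraries. Per the submitters' processing notes, CASAVA and Bowtie 0.12.2 were used with builds hg19 and mm8, whose roles are not stated. The counting tool, annotation, strand setting and read length are not stated in the labels. Symbols were found for 45342 of 48162 genes. GENCODE 29 gave lengths, gene order and transcripts, and coordinates are printed only for RefSeq promoter windows.

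Counts were fitted with edgeR 4.0.16 in R 4.3.3 (TMM factors, filterByExpr with a minimum count of 10 and total of 15, group as the only term, glmQLFTest), with Benjamini-Hochberg adjustment over 14923 genes and a threshold of 0.05. SE was derived by dividing the absolute log2 fold change by the root of F. The fit was tested on simulated data in which a small share of genes changed, equally up and down, at a single dispersion. Far more genes were called in the real libraries, so that test does not show how the fit performs on them. The libraries of a group differed by more than sampling noise (chi-square per degree of freedom 4.82 for TMEM9 KD and 2.04 for WT) and were kept as replicates. Alternatives were other scaling, filters, DESeq2 1.42.0, limma 3.58.1 voom, a test against 1.5-fold, removing the 20 most abundant genes, dropping each library in turn and a replicate block.

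The 8 members and the 12 lists were chosen with earlier results of these data known. Named are the members, TMEM9, metallothionein rows, 10 flanking genes, the 3 genes nearest to MT2A and to SLC30A1, and up to 4 called genes with the largest absolute change per list. A few list genes outside that rule (uncalled, at 0, or called as GCLC and TXNRD1 were) were named after their values were seen, as were most marker genes. MT1IP was not analysed here. Some marker genes are not reported here.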

Additional observations from a re-analysis of the deposited data

How the results depend on the processing

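MT1E and TMEM9 kept their direction and their call under all 14 alternatives, with log2 fold changes of MT1E between 2.41 and 2.56. MT1F did so under the 12 that gave a value, but with 0 counts in TMEM9 KD it could only be lower. The filter on a mean of at least 5 CPM removed MT1F and MT1X, and without WT replicate 2 MT1F did not pass the filter on low counts. MT2A, MTF1 and SLC30A1 kept their direction throughout and lost their call only against a change of 1.5-fold, at unchanged log2 fold changes of -0.32, 0.39 and -0.30. Their adjusted p ran from 2.06e-19, 9.7e-06 and 4.71e-09 to 1 over the alternatives. That test called 1111 genes higher and 1692 lower, against 4283 and 4335 in the main analysis. The uncalled log2 fold change of MT1X turned to -0.0068 with DESeq2 and ran from -0.39 to 0.49 when each library was left out; the cause was not tested. The log2 ratio of summed metallothionein levels was -0.047 scaled by library size alone, and -0.14 to -0.10 when each library was left out. With a replicate block, which rests on shared numbers only (correlation of deviations 0.00047), 4171 genes were called higher and 4266 lower, and no member changed its call. For the other list genes named by rule and the genes beside the cluster, 394 values kept direction and call. Another 22 kept direction and lost the call, 2 kept direction and gained it, and 0 turned. Where leaving out a library left 1 in a group, that library was assumed to vary like the others. Depth limits what can be said of MT1X, MT1F, MT1G and MT1M, and 2 libraries per group limit all values.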
